A study of Rattus norvegicus with 250 samples.

Results

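The 200 genes described here were those whose share of the hippocampal transcriptome differed least between the rats of an F2 intercross. They were chosen by their own measured values: of 32883 genes in the count table, 9645 had a mean CPM (the count of a gene scaled to the total of its library) of at least 10 over 245 libraries that passed quality control, and the 200 with the lowest coefficient of variation (CV, the SD over the mean) of CPM were taken. The CV over all 245 libraries therefore defined the genes and is given as a description. Of the 200, 26 could be paired with a gene symbol, as could 1347 of the 9645, because the annotation used here was shortened and held mostly chromosome 1. The named genes are thus a sample of the 200 that the annotation set.

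The rats descended from a cross between the bHR line, bred to respond strongly to a new environment, and the bLR line, bred to respond weakly, and belonged to 12 families. Polyadenylated RNA was sequenced from pooled punches of the dorsal and ventral hippocampus of 122 males aged 113 to 123 days and 123 females aged 124 to 132 days, with 1 library per rat, so that sex and age cannot be told apart. All were scored for locomotion in an unfamiliar enclosure (LocoScore) and on the elevated plus maze (EPM), and 208 had experience of Pavlovian conditioned approach (PavCA) training while 37 had none. Tissue was dissected by 2 people on 10 days and sequenced in 3 batches of 95, 94 and 56 rats. Library totals ran from 17.9 to 31.5 M (mega) counts in the females and from 18.2 to 28.2 M in the males. Markers paired with a gene showed a mixed tissue, with a mean of 1573 CPM for Slc17a7 of excitatory neurons, 995 CPM for Slc1a3 of astrocytes and 203 CPM for Mag of oligodendrocytes, and none of these was among the 200.

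A reference gene is one whose level is taken as constant, so that other transcripts can be read against it. Genes for ribosomal proteins, metabolic enzymes or basal transcription factors are customary choices because every cell needs them. CPM divides each gene by the whole library instead, so a gene that is stable in CPM keeps its share of the reads, and nothing follows about the number of its transcripts per cell. In a tissue of mixed cells, fewer cells of a type and less RNA per cell cannot be told apart.

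The CV of the 200 genes ran from 6.35% to 9.07% (median 8.56%), beside a median of 23.9% for the 9645 genes. The last 3 genes inside the limit had CVs of 9.06%, 9.06% and 9.07%, and the first 3 outside it 9.08%, 9.09% and 9.09%, so the limit cut a continuous range. Between the lowest and the highest library the median member differed 1.67-fold, and the median of all genes 3.34-fold. The median member had a mean of 1629.8 counts per library, and the sampling of reads would by itself give 9.06% of its squared CV.

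Members were found at nearly every abundance. Their mean CPM ran from 13.3 to 2065 (median 74.1), beside a median of 43.0 for all 9645 genes. When the 9645 genes were divided by mean CPM into 10 bins of equal size, 1 member fell in bin 1, 50 in bin 8 (77.3 to 114 CPM) and 16 in bin 10. Median CV over the same bins stayed between 22.3% and 25.7%. Together the 200 genes took 1.67% to 2.26% of the counts of a library (median 2.10%). CPM is not divided by transcript length, so these levels are shares of reads.

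**Figure D1:**
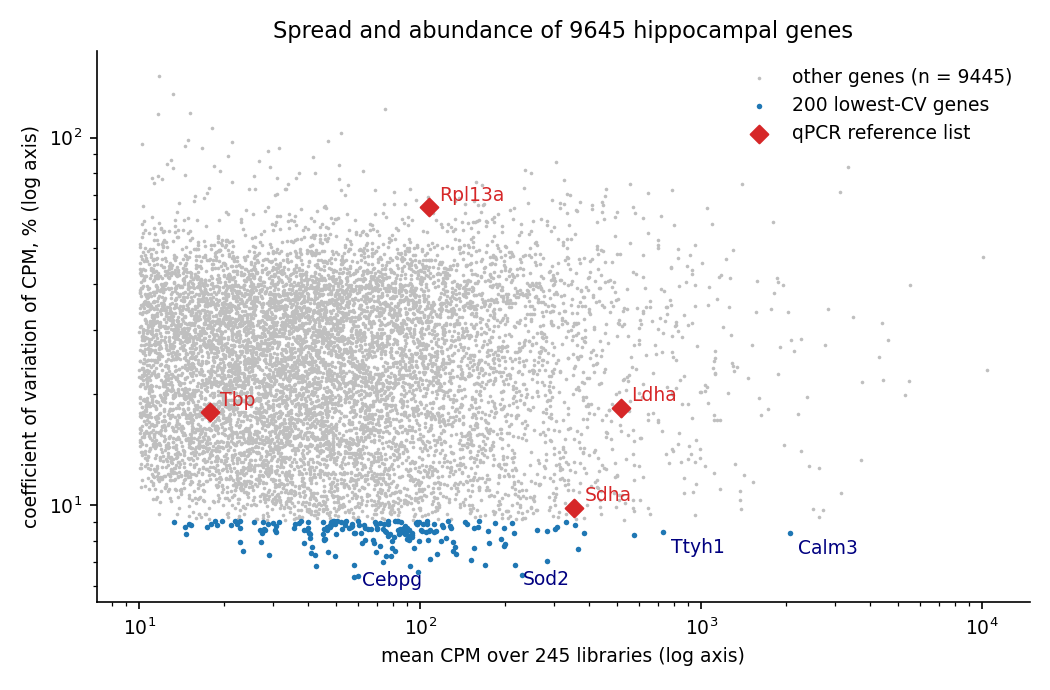
Coefficient of variation of CPM (%, log axis) against mean CPM (log axis) over 245 libraries, with 1 point per gene: the 200 lowest-CV genes in blue, the other genes of at least 10 CPM in grey and 4 genes of a qPCR reference list as red diamonds. The 200 genes form the lower edge of the cloud, from 6.35% to 9.07%; Sdha lies just above it at 9.84% and Rpl13a far above at 64.7%.

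Among the named members the lowest CVs belonged to a transcription factor and a mitochondrial enzyme. Cebpg, a transcription factor of the C/EBP family, had a CV of 6.87%, with 47.4 to 67.9 CPM in males (median 57.9) and 41.7 to 65.9 CPM in females (median 58.5). Sod2, the mitochondrial manganese superoxide dismutase, had a CV of 6.88%, with 182 to 251 CPM in males (median 215) and 183 to 248 CPM in females (median 220.1). For both genes the ranges of the sexes overlapped over most of their length.

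Several named members act on RNA, DNA or chromatin. Ythdf3, which binds methylated adenosines in mRNA, had a CV of 7.28%, and Ercc8, a factor of transcription-coupled DNA repair, 7.32%. Brd9, a bromodomain protein of a chromatin remodelling complex, had 8.08%, the splicing factor Prpf31 8.13%, Cstf2t, which acts in mRNA 3' end formation, 8.71%, and Ino80e, a subunit of the INO80 remodelling complex, 8.83%. Membrane traffic was represented by the SNARE proteins Stx4 (8.34%) and Vti1a (8.81%) and the exocyst subunit Exoc3 (8.66%). In lipid and anchor synthesis there were Ptdss2, a phosphatidylserine synthase (8.02%), and Pgap2, which acts on glycosylphosphatidylinositol anchors (8.33%).

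The other named members act in protein turnover, mitochondria and signalling. Nln, the neuropeptide-cleaving peptidase neurolysin, had a CV of 7.86%, Ube2s, a ubiquitin-conjugating enzyme, 8.29% and Cast, the calpain inhibitor calpastatin, 8.67%. Besides Sod2, Tfb1m, a methyltransferase of mitochondrial ribosomal RNA (8.82%), and Fastkd3 (8.89%) belong to mitochondria. Tmem135 (8.37%), Mettl9, a protein histidine methyltransferase (8.46%), Ccdc97 (8.58%), Wdr11 (8.89%) and Wdr70 (9.00%) completed the list.

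The named members with the most reads included a calcium sensor and a component of the membrane skeleton. Calm3, 1 of the genes that encode calmodulin, had a CV of 8.37%, with 1685 to 2400.5 CPM in males (median 2084) and 1614 to 2454 CPM in females (median 2056). Ttyh1, a membrane protein, had a CV of 8.45%, with 599 to 890.2 CPM in males (median 744) and 545 to 904 CPM in females (median 722). The sexes overlapped for both. Sod2 followed with a mean of 217 CPM, Add3, an adducin of the spectrin-actin skeleton, with 216 CPM (CV 8.38%), Cstf2t with 120.3, Ptdss2 with 107, Ube2s with 93.4, Mettl9 with 75.8, Ythdf3 with 75.5 and Exoc3 with 70.3. Calm3 and Cstf2t have close paralogs, and their counts are less certain where reads match more than 1 copy.

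**Figure D2:**
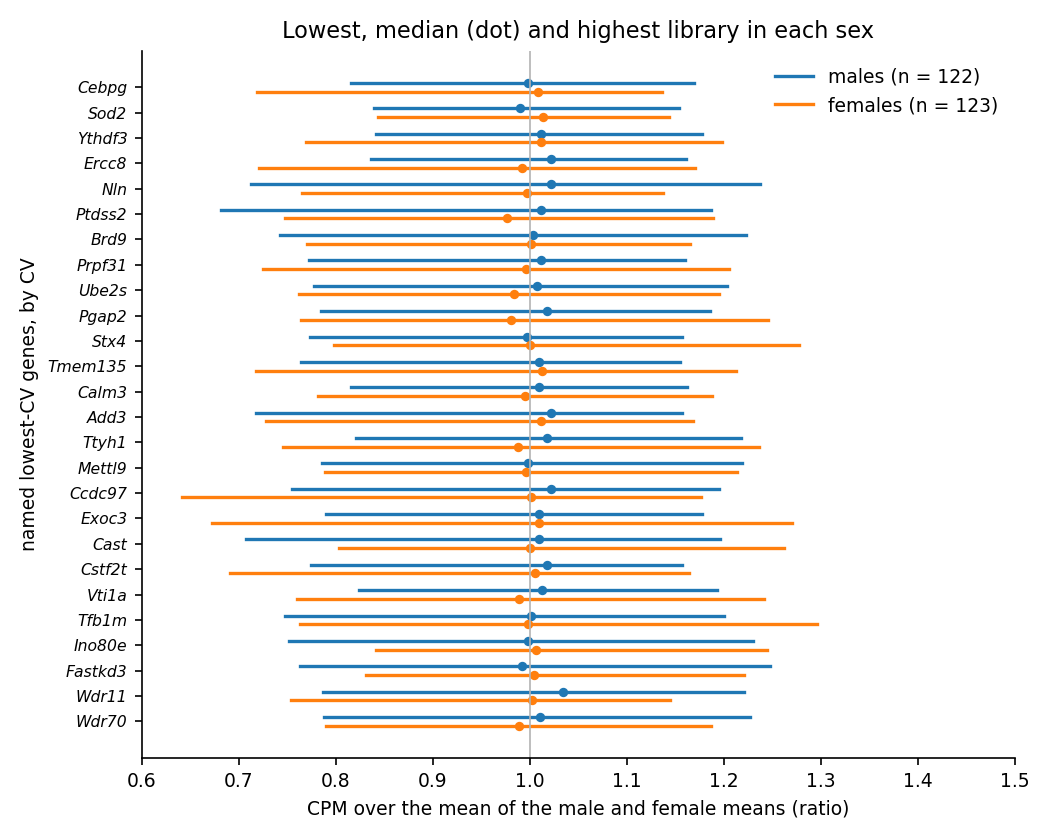
Lowest, median (dot) and highest CPM of the 26 named genes in 122 males (blue) and 123 females (orange), as a ratio to the mean of the male and female means, in order of CV. The ranges of the sexes overlap for every gene; Sod2, for example, runs from 182 to 251 CPM in males and from 183 to 248 CPM in females.

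Customary housekeeping families were looked up by symbol. With 26 of 1347 named genes as members, families of this size would hold few members or none, so their counts are a description and nothing is read from a count of 0. None of the 14 cytosolic ribosomal protein genes, 15 mitochondrial ribosomal protein genes, 17 respiratory chain genes, 15 phosphatase genes, 11 transcription genes, 7 translation initiation genes, 7 chaperone genes, 6 nuclear transport genes or 5 proteasome genes was a member. Vesicle traffic had 2 of 37 (Stx4 and Exoc3), the ubiquitin pathway 1 of 16 (Ube2s) and splicing and mRNA processing 1 of 18 (Prpf31). Median CV was 60.3% for the cytosolic ribosomal protein genes, 40.1% for the mitochondrial ones and 31.0% for the respiratory chain, beside 23.9% for all 9645 genes. Families were formed by the first letters of the symbol, and kinases of ribosomal protein S6 were left out.

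Promoter sequence was available for 22 of the named members, matched by symbol to RefSeq windows of 250 bases before to 50 after the gene start (build GRCr8). Their median GC content was 61.5%, beside 61.3% for 1094 named genes of at least 10 CPM and 52.3% for all 27457 promoters. Letters were searched on both strands. The GC box (GGGCGG) stood in 15 of the 22 (68.2%, beside 64.3% of the named genes and 34.9% of all promoters) and the CCAAT box (CCAAT) in 13 (59.1%, beside 37.0% and 37.7%). The letters of the TATA box (TATAAA) stood in 1, Ube2s, at -90 from the gene start (4.55%, beside 6.22% and 14.3%). An ETS site (CCGGAAG) stood in 13.6% (17.1% and 9.22%), the core of the cAMP response element (TGACG) in 36.4% (31.4% and 22.0%), part of the NRF1 site (TGCGCA) in 9.09% (14.8% and 7.68%) and a YY1 site (AAGATGGC) in 4.55% (5.76% and 3.44%). One window of 30 bases is shown for each of 4 kinds of match, 5′ to 3′ along the strand of the gene, with the matched letters in capitals.
Sod2, GC box, chr1:50050374-50050403, minus strand: tagccacaccggGGGCGGggacgagcgggc
Prpf31, CCAAT box, chr1:74502935-74502964, minus strand: gtcgtggagtggCCAATcaagttacaaatt
Ube2s, TATA box, chr1:78057557-78057586, plus strand: cctgcgggtagcTATAAAagtgcggtgttg
Brd9, ETS site, chr1:31185572-31185601, minus strand: cccaccctgacCCGGAAGcactcggggggt
A match describes the letters and shows no binding. In base content these promoters were close to those of the other named genes expressed at this level.

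Stability was read next in rats that had not chosen the genes. Of the 200 lowest-CV genes chosen in males, 118 were among the 200 lowest in females, and 199 were in the lowest 10% of 9634 genes. In females 200 genes were 2.08% of those 9634. The reverse choice gave the same counts. Genes chosen in males had a median CV of 8.16% there and 8.93% in females, where all genes had 25.1%, and genes chosen in females had 8.63% there and 8.53% in males, where all genes had 22.7%.

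Carry-over between sequencing batches was smaller where batch 3 took part. Batches 1 and 2 shared 107 of their 200 lowest-CV genes, batches 1 and 3 shared 35, and batches 2 and 3 shared 31. In a batch 200 genes were 2.07% to 2.12% of the genes of at least 10 CPM. The genes chosen in batch 1 had a median CV of 6.76% there, 7.08% in batch 2 and 11.6% in batch 3. Among the 200 genes described here, 21 were chosen again in both sexes and in each batch, with Cebpg, Ythdf3 and Ercc8 as the named ones. All these libraries had taken part in the choice of the 200, so the 21 are a description and not a held-out result. Prpf31 had CVs of 7.07%, 6.26% and 11.6% in batches 1, 2 and 3, whereas Sod2 had 5.87%, 7.81% and 4.64% and ranked first in batch 3.

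In batch 3 the 200 genes moved together in some libraries. The median over the 200 of the log2 distance to the gene's own median lay between -0.14 and 0.08 in batch 1, between -0.14 and 0.10 in batch 2 and between -0.36 and 0.09 in batch 3. It was past 0.2 in 9 libraries, all lower and all of batch 3, with 7 from dissection day 14 and 2 from day 11. Over all 9645 genes the same median reached -0.63 in batch 3, -0.41 in batch 2 and -0.34 in batch 1. Counts of 14 named ribosomal protein genes took a median of 0.97% of a library in batch 3, 0.38% in batch 2 and 0.45% in batch 1, and the rRNA percentage had medians of 1.51%, 0.85% and 1.04%. RNA integrity had medians of 8.95, 9.05 and 9.0. Their part in the shift was not tested. Every library of days 11 and 14 was in batch 3, so those days cannot be told apart from the batch, and day 14 was singled out after its values were seen.

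**Figure D3:**
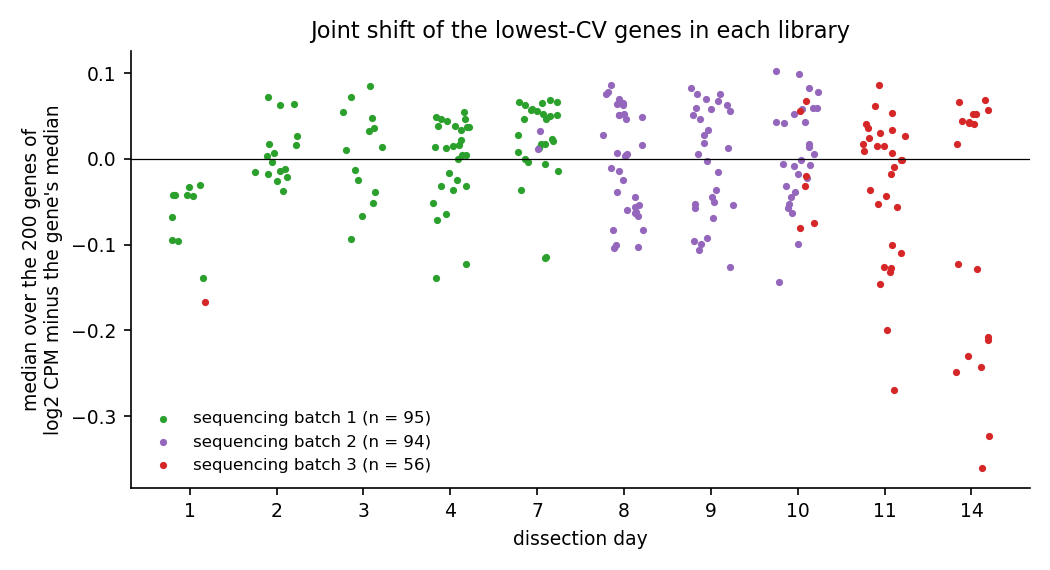
Joint shift of the 200 genes in each of 245 libraries (median over the genes of log2 CPM minus the gene's median) against dissection day, with 1 point per library coloured by sequencing batch. The libraries of batches 1 and 2 lie between -0.14 and 0.10, and the 9 libraries below -0.2 are from batch 3 on days 11 and 14.

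Without the 19 libraries of day 14 the median CV of the 200 genes was 7.93%, and without batch 3 it was 7.56%. A new choice kept 159 of the 200 without day 14 and 112 without batch 3. Cebpg, Sod2, Ythdf3, Ercc8, Nln, Ptdss2, Prpf31, Ube2s, Tmem135, Add3, Ccdc97 and Exoc3 were among the 112.

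The 5 libraries that failed quality control had no part in the choice. Their median absolute log2 distance over the 200 genes was 0.050 and 0.22 in the libraries of low RNA integrity (7.5 and 6.6), 0.13 in a library of 109.7 M counts, and 0.14 and 0.080 in the pair whose sex label went against sex-linked expression. Over all 9645 genes the distances were 0.31, 0.34, 0.44, 0.62 and 0.49 in the same order. In the 245 accepted libraries the distance of the 200 ran from 0.040 to 0.36 (median 0.074), so each failed library lay within that range. In the same order, 0%, 2%, 1%, 0% and 0.5% of the 200 lay outside their own accepted range. Of the 9645 genes 0.093%, 0.29%, 0.15%, 0.62% and 0.12% did. The ranges of the 200 are narrow by their choice.

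Dependence on RNA composition was read in the study's linear model (LocoScore, sex, rRNA and intergenic percentage, dissector, PavCA experience and batch), with library sizes adjusted by TMM, a factor per library from the trimmed mean of log ratios between libraries. The intergenic percentage, the share of reads outside annotated genes, ran from 9.91% to 17.3%, and the rRNA percentage from 0.48% to 2.88%. Across the 245 libraries they were inversely related (Pearson's r = -0.78, a description). A small CV limits the size of a slope, so a called share below that of all genes is given by the choice of the genes, and nothing is read from it.

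For the intergenic percentage 145 of the 200 passed the threshold (adjusted p under 0.10, limma-voom), 23 rising and 122 falling, where 77.3% of all 19448 genes tested passed. Of the 9645 genes 93.3% passed, 49.2% rising and 44.1% falling. The median slope was -0.018 log2 per percentage point in the 200 and 0.013 in the 9645, and the median size without sign was 0.022 and 0.12.

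The named members with the largest intergenic slopes all fell. Wdr70 changed by -0.046 ± 0.0066 (SE) log2 per point (limma-voom, adjusted p = 8.03e-11), Tfb1m by -0.044 ± 0.0074 (1.57e-08), Ptdss2 by -0.043 ± 0.0048 (2.82e-16), Calm3 by -0.038 ± 0.0066 (6.55e-08) and Ino80e by -0.035 ± 0.0066 (5.21e-07). Their slopes were negative in all 3 batches, with -0.038, -0.042 and -0.13 for Wdr70 and -0.028, -0.044 and -0.12 for Ptdss2 in batches 1, 2 and 3, and Ino80e missed the threshold in batch 2 (limma-voom, adjusted p = 0.140). Cstf2t, Ttyh1, Wdr11 and Tmem135 rose over all libraries, with slopes of 0.034, 0.031, 0.030 and 0.023. In batches 1, 2 and 3 Cstf2t had 0.050, 0.022 and -0.024, Wdr11 0.044, -0.0025 and 0.019, and Tmem135 0.049, -0.0024 and -0.034, so the sign changed between batches for these 3, while Ttyh1 had 0.027, 0.026 and 0.013. In batches 2 and 3 none of the 4 passed. Add3 had a slope of 0.00016 ± 0.0048 (adjusted p = 0.978), the closest to 0 among the named members.

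For the rRNA percentage 112 of the 200 passed, 83 rising and 29 falling, where 68.8% of all genes tested passed. Of the 9645 genes 85.3% passed, 35.6% rising and 49.8% falling. Ttyh1 had the largest slope among the named members, 0.27 ± 0.032 log2 per point (limma-voom, adjusted p = 3.12e-14), before Mettl9 (0.23 ± 0.024, 4.47e-17), Sod2 (0.21 ± 0.020, 5.43e-21), Ino80e (0.14 ± 0.027, 2.45e-06) and Stx4 (0.14 ± 0.027, 2.68e-06). In batches 1, 2 and 3 the slope of Ttyh1 was 0.25, 0.31 and 0.30 and that of Sod2 0.23, 0.21 and 0.19, whereas Ino80e had 0.22, 0.31 and -0.019. Add3 and Exoc3 fell over all libraries, with slopes of -0.075 and -0.091. Within batches 1, 2 and 3 Exoc3 had 0.022, -0.036 and -0.25 and Add3 -0.022, -0.055 and -0.12, and both passed in batch 3 alone.

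The direction of the rRNA slopes turned with the scaling, whereas most members that passed for the intergenic percentage fell under both scalings. With library totals in place of TMM, 186 of the 200 passed for rRNA, 2 rising and 184 falling, where 89.8% of the 9645 passed, and 178 passed for the intergenic percentage, 5 rising and 173 falling, where 92.6% of the 9645 passed. The median rRNA slope of all genes tested moved from -0.0029 to -0.21 between these scalings. Under library totals Stx4 fell (-0.073) and Ino80e fell (-0.071), Sod2 (0.0021, adjusted p = 0.918) and Mettl9 (0.019, adjusted p = 0.590) did not pass, and Ttyh1 still rose (0.061, adjusted p = 0.0762), all by limma-voom.

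A change of scaling moves the log2 values of all genes in a library by the same amount. Slopes relative to the 9645 genes are thus nearly fixed under any scaling, and nothing is read from that. The median rRNA slope of the 200 was 0.10 above that of the 9645 under either scaling, and their median intergenic slope 0.031 below. Within batches 1, 2 and 3 the difference was 0.12, 0.15 and -0.022 for rRNA and -0.024, -0.029 and -0.054 for the intergenic percentage. The rRNA difference thus turned in batch 3.

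**Figure D4:**
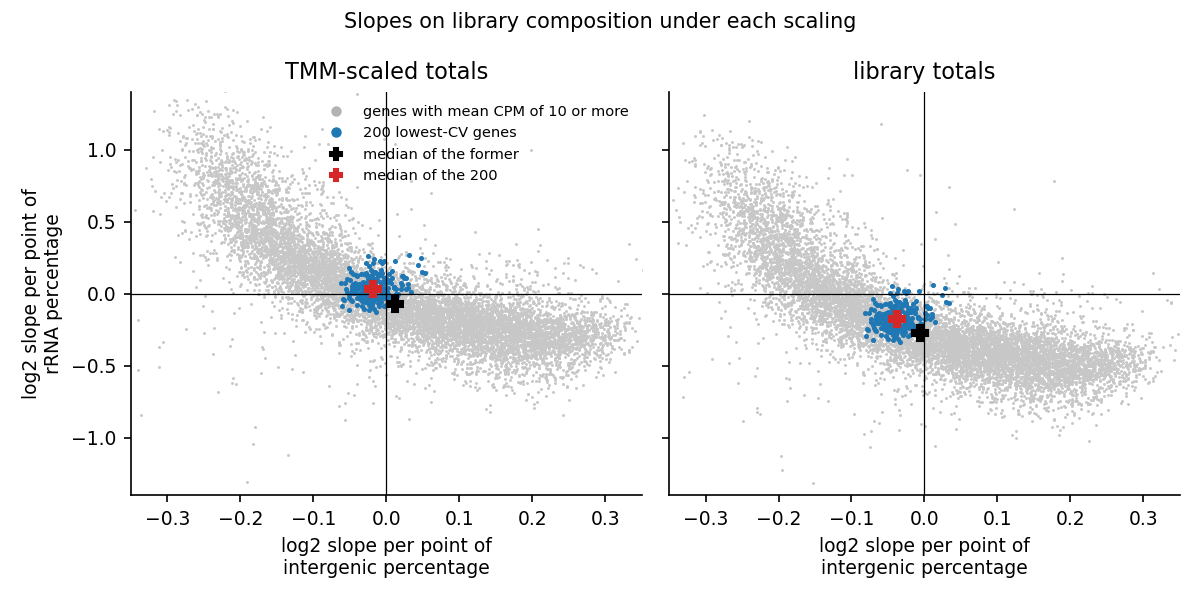
Log2 slope per percentage point of rRNA against that of intergenic reads, with TMM-scaled totals (left) and library totals (right), for genes with a mean of at least 10 CPM (grey) and the 200 lowest-CV genes (blue), with crosses at the median of the former (black) and of the 200 (red). The median of the 200 sits above and to the left of the black cross under both scalings, as a change of scaling moves all genes alike. Both medians shift downward with library totals. Outside the axes lie 33 genes at left and 28 at right, none of them a member.

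How much of the remaining variance went with each term was read from a least-squares model with family added (TMM-scaled log2 CPM, medians over genes). The whole model held 37.6% of the variance in the 200 and 81.4% in the 9645. Dropping both composition percentages lost 12.1% in the 200 and 41.5% in the 9645, dropping family 5.77% and 2.42%, and dropping batch 4.19% and 1.03%. Sex held 0.229% and LocoScore 0.118% in the 200. The residual SD was 0.088 log2 in the 200 and 0.14 in the 9645. Shares of family and batch are larger in the 200 as parts of a smaller total. Family had 11 coefficients and batch 2, and the shares are not adjusted for that number. A term with more coefficients takes a larger share even without an effect, so the shares of family and batch are not compared with each other.

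The 200 genes also varied jointly. With library totals the first principal component held 39.1% of their variance, and the median correlation of a pair over the 245 libraries was 0.36. With TMM these were 34.5% and 0.23. The first component of all 9645 genes held 73.1% under library totals. All pairs share the same libraries, so these are descriptions.

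Sequencing batch passed in 153 of the 200, where 56.7% of all genes tested and 77.9% of the 9645 passed. The smallest adjusted p-values among named members (limma-voom F test) were those of Exoc3 (5.06e-12), Ythdf3 (1.03e-11), Cstf2t (1.13e-08), Sod2 (5.79e-08) and Mettl9 (3.28e-06). Against batch 1, the model coefficients for batch 3 were 0.17 log2 for Exoc3 and 0.14 log2 for Cstf2t. Those for batch 2 were -0.088, -0.077 and -0.074 log2 for Ythdf3, Mettl9 and Sod2. These are adjusted for the other terms and TMM-scaled, and are not differences in CPM. Mean CPM in batches 1 and 3 was 68.5 and 70.2 for Exoc3 and 120.0 and 118.4 for Cstf2t. Over the 200 genes the coefficients ran from -0.15 to 0.079 log2 for batch 2 and from -0.14 to 0.17 for batch 3. With dissection day in place of dissector in the model 65 of the 200 passed, where 24% of the 9645 did. Exoc3, Cstf2t, Sod2 and Mettl9 then did not pass (limma-voom F test, adjusted p = 0.289, 0.509, 0.232 and 0.897). Batches are then compared only within days that held libraries of more than 1 batch, so the loss does not show that batch had no part.

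Family passed in 109 of the 200, where 56.3% of all genes tested and 77.4% of the 9645 passed. From the lowest to the highest fitted family the median member differed by 0.10 log2 (1.07-fold) and the median of the 9645 by 0.19 log2 (1.14-fold). Ube2s had the smallest adjusted p among named members (0.000339, limma-voom F test) and a fitted range of 1.12-fold; its 12 family means ran from 88.9 to 99.3 CPM. Sod2 (0.000585), Vti1a (0.000765), Ino80e (0.00431) and Ptdss2 (0.00472) followed, with fitted ranges of 1.07-fold, 1.12-fold, 1.08-fold and 1.08-fold. Add3 had a fitted range of 1.05-fold and did not pass (adjusted p = 0.753). Without the composition percentages in the model 38 of the 200 passed, where 19.6% of the 9645 did, and within batches 1, 2 and 3 the counts were 8, 52 and 0. For the fits within batches the share of all genes is not given, and nothing is read from those counts.

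Dissector passed in 28 of the 200, all lower in tissue of the second dissector, where 14.9% of all genes tested and 21.5% of the 9645 passed, 5.24% higher and 16.3% lower. With library totals 9 passed, 7 of them higher, and without the composition percentages 135 passed, 108 of them higher. The intergenic percentage had a median of 14.5% in tissue of the first dissector and 12.3% in that of the second. PavCA experience passed in 33 of the 200, 26 higher and 7 lower in trained rats, where 9.19% of all genes tested and 13.9% of the 9645 passed, 7.49% higher and 6.44% lower. With library totals 22 passed, 19 of them lower, and without the libraries of day 14 there were 9, all lower. Neither count kept its direction. Shares of all genes under these other settings are not given, so the changes are not read as particular to the 200.

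Sex passed in 19 of the 200, 15 higher and 4 lower in females, where 9.08% of all genes tested and 11.7% of the 9645 passed, 5.18% higher and 6.48% lower. Without the libraries of day 14 the count was 16, with 4 higher and 12 lower, and within batches 1, 2 and 3 it was 5, 3 and 0. The share of all genes in these fits is not given, so the counts describe the members alone. Fastkd3, a mitochondrial RNA-binding protein, was 0.057 ± 0.016 log2 higher in females (limma-voom, adjusted p = 0.0142), with 12.5 to 18.3 CPM in females (median 15.1) and 11.4 to 18.7 CPM in males (median 14.9). Sod2 was 0.029 ± 0.0098 higher (adjusted p = 0.0503), Ino80e 0.040 ± 0.013 higher (0.0525), and Ttyh1 had a difference of -0.045 ± 0.016 (0.0681). The sexes overlapped for all 4. Without the libraries of day 14, Sod2, Ino80e and Ttyh1 did not pass (limma-voom, adjusted p = 0.169, 0.289 and 0.101). Within batches 1, 2 and 3 the difference of Fastkd3 was 0.077, 0.081 and -0.018.

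No member passed for behavior. LocoScore gave 0 of the 200 by limma-voom, edgeR's quasi-likelihood test and DESeq2, where 0.0103% of all genes tested passed by limma-voom. On the EPM, distance, immobility and the share of time on open arms gave 0, where 0% of all genes tested passed. PavCA Index gave 0, where 0.00515% of all genes tested passed. At an unadjusted p under 0.05 (limma-voom) there were 14 of the 200. The share of all genes at that limit is not given, so nothing is read from the 14.

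For use as reference genes, a list of 27 common qPCR references was looked up, and 4 could be paired with a gene of at least 10 CPM. None was a member. With 26 of 1347 named genes as members, a list of 4 would mostly hold none, and nothing is read from this. Sdha, a subunit of respiratory complex II, came closest, with a CV of 9.84% (rank 369 of 9645) and 215 to 413 CPM. Tbp, the TATA-binding protein, had a CV of 17.9% (rank 3098) and Ldha, a lactate dehydrogenase subunit, 18.4% (rank 3234). Rpl13a, a ribosomal protein, had 64.7% (rank 9546), with 30.5 to 349 CPM; a second gene with that symbol had 2.71 CPM, and reads may be split between copies. Rpl13a changed by -0.25 log2 per point of intergenic reads, Tbp and Ldha each by -0.12, and Sdha by 0.0079 (limma-voom, adjusted p = 0.0667). On rRNA the slopes were 1.11 for Rpl13a, 0.22 for Tbp, -0.12 for Sdha and 0.0079 for Ldha, the last with adjusted p = 0.881 by limma-voom. The value of Ldha joined opposite slopes, 0.23 in batch 1 (adjusted p = 0.000170), 0.28 in batch 2 (0.00321) and -0.36 in batch 3 (0.00334), each past the threshold by limma-voom. The other listed genes were not analysed here.

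A scale was then built in 1 sex, as the geometric mean CPM of its lowest-CV genes, and read in the other. CPM is the share of the library total that also defined the genes, so a small spread here is closeness to that total. Read in females, 1 gene gave an SD between rats of 0.11 log2, 3 genes 0.055, 5 genes 0.052, 10 genes 0.056, 50 genes 0.073 and 200 genes 0.084. Read in males the same sizes gave 0.10, 0.042, 0.039, 0.051, 0.066 and 0.078. The spread of these geometric means over library totals was smallest at 5 genes in both sexes, but that size depended on the scaling and on the mean. Over TMM-scaled totals 5, 10, 50 and 200 genes gave 0.082, 0.068, 0.047 and 0.045 in females and 0.080, 0.070, 0.067 and 0.066 in males, smallest at 200. With summed counts over library totals the smallest spread was at 3 genes in females (0.055) and at 10 in males (0.057). The 4 reference genes together gave 0.31 and 0.29, Sdha alone 0.17 and 0.13, Rpl13a alone 0.94 and 0.83, and the TMM factor 0.094 and 0.079. From the lowest to the highest rat the scale of 10 genes differed 1.24-fold in females and 1.23-fold in males, and the reference list 2.06-fold and 2.24-fold.

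**Figure D5:**
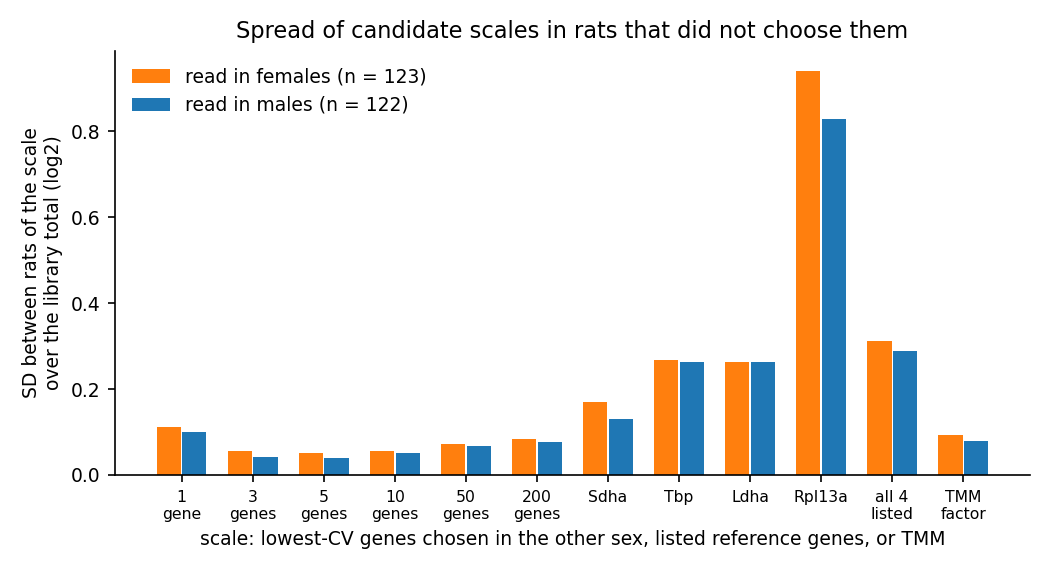
SD between rats (log2) of candidate scales over the library total, as bars from 0, in 123 females (orange) and 122 males (blue): geometric means of 1 to 200 lowest-CV genes chosen in the other sex, single reference genes, the 4 together and the TMM factor. Scales of 3 to 10 genes have SDs of 0.039 to 0.056, below the TMM factor (0.094 and 0.079), and the 4 reference genes together have 0.31 and 0.29.

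Whether these scales followed RNA composition was read in 12 relations (3 scales, both sexes, both percentages; two-sided permutation tests with 100000 resamples, adjusted over the 12). Rats of a sex were shuffled across batches, days and families, so these p-values do not measure a relation within batches. The reference list fell with the intergenic percentage in females (r = -0.96, rho = -0.95) and in males (r = -0.94, rho = -0.94) and rose with the rRNA percentage in females (r = 0.83, rho = 0.89) and in males (r = 0.82, rho = 0.88). All 8 had a permutation p of 1e-05, the smallest the resamples can give (adjusted 2e-05). Within batches 1, 2 and 3 the r with the intergenic percentage was -0.94, -0.96 and -0.93 in females and -0.94, -0.96 and -0.88 in males, and that with rRNA 0.87, 0.90 and 0.66 in females and 0.82, 0.86 and 0.63 in males. Without the 2 farthest rats the 4 values of r were -0.96, -0.94, 0.86 and 0.84. Not every listed gene went with the list. Sdha alone had r = 0.69 in females and 0.57 in males with the intergenic percentage, and -0.86 and -0.80 with rRNA. With the intergenic percentage Rpl13a alone had -0.94 and -0.90, Tbp -0.87 and -0.86, and Ldha -0.74 and -0.72. Rpl13a had the largest spread of the 4. These single-gene values are descriptions.

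Over library totals the scale of 10 lowest-CV genes had relations whose direction differed between sexes and batches. With the intergenic percentage r was 0.30 in females (permutation p = 0.00058, adjusted 0.00087; rho = 0.23, p = 0.0104, adjusted 0.0114), but 0.11, -0.25 and 0.68 within batches 1, 2 and 3. In males it was -0.35 (permutation p = 4e-05, adjusted 6.9e-05; rho = -0.40, p = 1e-05, adjusted 2e-05), but -0.67, -0.75 and 0.31 within batches. With rRNA r was -0.53 in females (permutation p = 1e-05, adjusted 2e-05; rho = -0.30, p = 0.00059, adjusted 0.00101) and -0.28, 0.096 and -0.86 within batches. In males r was -0.0090 (permutation p = 0.921, adjusted 0.921; rho = 0.26, p = 0.00331, adjusted 0.00441) and 0.24, 0.54 and -0.76 within batches. Without the 2 farthest rats the r of these 4 relations was 0.29, -0.31, -0.45 and 0.16. The pooled values thus did not hold within every batch.

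Over library totals the relations of the scale of 200 genes also changed sign, with the intergenic percentage between sexes and with both percentages between batches. With the intergenic percentage r was 0.29 in females (permutation p = 0.00109, adjusted 0.00145; rho = 0.15, p = 0.0972, adjusted 0.0972), with 0.31, -0.48 and 0.72 within batches 1, 2 and 3. In males it was -0.28 (permutation p = 0.00135, adjusted 0.00162; rho = -0.42, p = 1e-05, adjusted 2e-05), with -0.59, -0.68 and 0.29. With rRNA it was -0.59 in females (permutation p = 1e-05, adjusted 2e-05; rho = -0.26, p = 0.00304, adjusted 0.00441), with -0.49, 0.24 and -0.92. In males it was -0.13 (permutation p = 0.144, adjusted 0.157; rho = 0.24, p = 0.00678, adjusted 0.00814), with 0.19, 0.46 and -0.76. Without the 2 farthest rats the 4 values were 0.28, -0.24, -0.51 and 0.047. None of these 8 relations of the lowest-CV scales kept its sign in all 3 batches.

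Over TMM-scaled totals the same scales had 1 sign in both sexes. For 10 genes r with the intergenic percentage was -0.46 in females and -0.66 in males, and r with rRNA 0.63 and 0.81. For 200 genes these were -0.52 and -0.76, and 0.49 and 0.71. The TMM factor itself, by which these scales were divided, had r of 0.51 in females and 0.36 in males with the intergenic percentage. With rRNA it had -0.77 and -0.73. The genes were chosen by their spread over library totals, so this division tends to give the opposite signs. Nothing is therefore read from the shared sign. All these values are descriptions, and they were not read within batches. The change of sign between the sexes in the relation with the intergenic percentage was seen over library totals and not over TMM-scaled totals.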

How the data were processed

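Hippocampal polyA RNA of F2 rats was sequenced, with 1 library per rat, and replicates are separate rats. The authors aligned reads with STAR (2.7.3a) and made read counts per gene with Subread (2.0.0), on the Rnor6 genome with Ensembl annotation; the counts were deposited without normalization. The 5 of 250 libraries labelled as failed were left out. CPM used the library total. The intergenic percentage was recomputed as 100 minus the mRNA, intronic and ribosomal percentages, because its label is damaged, and batches were taken from breaks in the numbering of the sample titles. After a filter (1 read or more in 25% of the libraries), genes were tested with limma-voom (R 4.3.3, limma 3.58.1) after TMM (edgeR 4.0.16), with moderated tests and Benjamini-Hochberg adjustment over all genes tested; edgeR's quasi-likelihood test and DESeq2 (1.42.0) were alternatives, and permutation tests used scipy (1.17.1) in Python (3.11.15). The fits were tested on simulated data. Named genes were, among members with a symbol, the 10 of lowest CV, the 10 of highest CPM, the 5 largest slopes on each percentage, the 5 smallest p for family and batch, and up to 5 called for sex; other named members are given to complete the 26. Symbols came from the study's supplementary annotation. Of 41 markers listed, 5 were paired with a gene: besides those in the text, Stmn2 of neurons (754 CPM) and Folr1 of choroid plexus (25.9 CPM). The members and lists were chosen with earlier results of these data known.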

Additional observations from a re-analysis of the deposited data

How the results depend on the processing

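No paired analysis was possible because replicate numbers only name the rats in accession order and pair no samples. Of the 200 genes, other rules kept fewer: 89 with TMM, 44 with DESeq2 size factors, 106 with the median absolute deviation, 49 with the residual SD after the covariates, 106, 92 and 75 in batch 1, 2 or 3 alone and, chosen after seeing the data, 112 without batch 3; 19 were kept under every scaling and measure of spread. Of genes chosen in 1 batch, 35 were chosen again between batches 1 and 3 and 31 between batches 2 and 3. Members called for rRNA were 186 with library totals and 199, all falling, when scaled to the reference list (chosen after seeing the data); with DESeq2 size factors 120 of 128 rose, scaled to the 200 genes 58 of 129 and to the 10 lowest-CV genes 12 of 164. For the intergenic percentage 62 of 136 rose when scaled to the 200 genes and 200 of 200 when scaled to the reference list. Scaling to the 200 genes centres their own slopes near 0 (median -0.0016 for the intergenic percentage and -0.0082 for rRNA). The splits of 62 of 136 and 58 of 129 therefore follow from that scaling, and nothing is read from them. Batch called 65 with dissection day in place of dissector and 94 without batch 3. Dissector called 17 with DESeq2 size factors, 9 with library totals, 18 with no filter, 9 with a minimum of 1 CPM, 13 with all 250 libraries, 7 in batch 1, 0 in batch 2, 135 without the composition percentages, 15 without day 14 and 12 without batch 3. PavCA experience called 13 with no filter, 51 with DESeq2, 2, 0 and 6 in batches 1, 2 and 3, 7 without the composition percentages, 9 without day 14 and 13 without batch 3. Family called 8, 52 and 0 in batches 1, 2 and 3 and 38 without the composition percentages, and sex 5, 3 and 0 in the batches and 7 without the composition percentages. Leaving out day 14 or batch 3, scaling to the 200 genes, to the 10 genes or to the reference list, and leaving out 1 of the composition percentages were chosen after seeing the data. The cause of these changes was not tested, and fits within a batch have fewer rats. Shares of all genes are not given for most of these settings, so the changes are not read as particular to the 200. The relative rRNA slope of the members was -0.022 in batch 3 and 0.21 with the intergenic percentage left out. The rRNA slope of Ino80e was -0.071 with library totals and -0.019 in batch 3, that of Stx4 -0.073 with library totals, and the sex difference of Fastkd3 -0.018 in batch 3. The SD of the scale of 10 genes was 0.068 in females and 0.070 in males over TMM-scaled totals, and 0.065 and 0.057 with summed counts. For 200 genes it was 0.045 and 0.066 over TMM-scaled totals, and for the reference list 0.37 and 0.33, or 0.19 and 0.18 with summed counts. Among the counts, shares and spreads read under other settings, 108 values stayed near the reported one and 52 moved. For counts of members only the size was compared and not the direction. Some of the 108 therefore turned direction, as the count for sex did without day 14.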
